A study of Sus scrofa with 48 samples.

Results

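STAP1, C10ORF25, ARAP3 and ARHGAP17 are 4 genes of pig whole blood whose difference between diets ran one way in pigs selected for low residual feed intake (RFI) and the other way in pigs selected for high RFI. They were chosen by the line × diet interaction term of the same 48 pigs, so that the interaction and the diet difference within each line are given below as a description, without a test. The 4 genes were read by 6 of the 37113 probes that the authors retained, and 9831 genes carried a symbol in all. Only ARHGAP17 was found by its name in the scanner files, with 2 probes. The first STAP1 probe was named through the gene number that the file gives. The second STAP1 probe, the C10ORF25 probe and the ARAP3 probe carry only an assembly identifier in the files. They were named through the study's list of probes with a line × diet interaction, so that a probe outside this list could not be named in this way. A further probe named arap3 was not among the retained ones.

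The pigs were castrated French Large White males, and RFI is the feed eaten beyond what maintenance and growth of the animal would predict. Both lines come from divergent selection on this trait, so that each is 1 selected population. Pigs of each line (24 per line) were fed either a high-fat, high-fiber (HF) diet or a low-fat, low-fiber (LF) diet, which gave the 4 groups low RFI HF, low RFI LF, high RFI HF and high RFI LF with 12 pigs each. In the HF diet, straw and plant oils replaced a share of the cereals. Blood was collected at slaughter, at an age of 132 days, and the RNA of each pig was hybridized to its own single-colour array. The groups hold no unselected line, so that every difference is between these 4 groups.

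STAP1 is an adaptor protein with a domain that binds membrane lipids and a domain that binds phosphorylated tyrosines, known as a substrate of the kinase TEC and as a component of B cell antigen receptor signalling. ARHGAP17 (also called RICH1) speeds the hydrolysis of GTP by CDC42 and RAC1, small GTPases that switch actin remodelling on and off. ARAP3 carries a domain that does the same for Arf proteins and is recruited to membranes by phosphoinositides. C10ORF25 is named after a human open reading frame, and no function is given for it here. Whole blood mixes leukocytes, platelets and red cells, so fewer cells of a type and less RNA per cell cannot be told apart in these values.

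The sequences of the probes are printed because the files give no gene symbol for 4 of the 6 probes and because overlaps between probes bear on the results for STAP1 and ARAP3. All are 60 bases long and are written 5′ to 3′, as in the scanner files. Capitals mark a run shared with another probe of the array, and lower case marks the remainder.
STAP1, probe A_72_P410468: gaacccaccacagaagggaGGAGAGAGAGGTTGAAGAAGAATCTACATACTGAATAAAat
STAP1, probe A_72_P339423: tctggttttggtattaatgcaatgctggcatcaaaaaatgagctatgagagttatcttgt
opposite strand to the first STAP1 probe, A_72_P355518: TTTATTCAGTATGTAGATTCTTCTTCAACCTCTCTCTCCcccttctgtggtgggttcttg
C10ORF25, probe A_72_P130236: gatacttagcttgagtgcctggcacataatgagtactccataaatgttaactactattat
ARAP3, probe A_72_P371548: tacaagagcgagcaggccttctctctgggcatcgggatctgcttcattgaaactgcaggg
named arap3 but not retained, O6671: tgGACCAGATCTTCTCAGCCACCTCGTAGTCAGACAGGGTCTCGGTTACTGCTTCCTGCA
overlapping the probe named arap3, A_72_P425954: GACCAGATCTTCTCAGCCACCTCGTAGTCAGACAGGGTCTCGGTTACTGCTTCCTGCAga
ARHGAP17, probe O12016: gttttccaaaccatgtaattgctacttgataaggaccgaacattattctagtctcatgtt
ARHGAP17, probe A_72_P377963: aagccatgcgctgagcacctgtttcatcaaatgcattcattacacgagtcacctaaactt

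The first STAP1 probe shares a run of 39 bases with A_72_P355518, read on the opposite strand, so that over this run they bind RNA of opposite direction. The letters AATAAA, those of the common polyadenylation signal, occur in the first STAP1 probe as printed and, on the other strand, in A_72_P355518. Among all retained probes, 12% hold these letters as printed and 4.34% on the other strand, and the other 7 probes above hold them on neither. The probe named arap3 and A_72_P425954 share 58 bases on the same strand, and A_72_P425954 shares no run of 18 bases with the retained ARAP3 probe. The files place no probe on the genome, so that no position, exon or UTR is given.

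All 6 member probes were well above background on all 48 arrays. The dimmest was the ARAP3 probe, with a median intensity 5.41 times the local background, and the brightest was ARHGAP17 probe O12016, with 168.02 times. Each of the 6 slides, which were scanned over 3 days, held 2 pigs of each group. Over the retained probes the median intensity was 5.91 to 15.97 times the local background per array. In the deposited table the column of high RFI HF replicate 1 repeats a single value in 37090 of 37113 entries, and its values were rebuilt here from the scanner file with the arithmetic that the other 47 columns follow. Expression is given as log2 intensity with the median of each array at 0, so that a difference of 1 is 2-fold, and a gene value is the mean over its probes.

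STAP1 expression was lower with the LF diet than with the HF diet in low RFI pigs and higher with the LF diet in high RFI pigs. In low RFI HF pigs the gene value ranged from -0.48 to 0.30 with a median of 0.02, and in low RFI LF pigs from -0.69 to -0.04 with a median of -0.26. The highest low RFI LF pig was below the median of the low RFI HF pigs, so that 12 of 12 LF pigs lay under it, while the ranges still overlapped. Of the low RFI HF pigs, 2 of 12 lay below the median of the LF pigs. In high RFI HF pigs STAP1 ranged from -0.50 to 0.23 with a median of -0.12, and in high RFI LF pigs from -0.24 to 0.61 with a median of 0.03. Here 9 of 12 LF pigs lay above the median of the HF pigs, and 8 of 12 HF pigs lay below the median of the LF pigs. The HF minus LF difference was 0.29 (SE 0.10) in low RFI pigs, or 1.22-fold, and -0.23 (SE 0.10) in high RFI pigs, or 1.17-fold in the other direction. The interaction, which is the first difference minus the second, was 0.52 (SE 0.15).

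Ordered by mean, STAP1 was highest in high RFI LF pigs (0.12 ± 0.30, SD, n = 12), followed by low RFI HF (-0.03 ± 0.22), high RFI HF (-0.12 ± 0.27) and low RFI LF pigs (-0.32 ± 0.22). No neighbours in this order differed by more than the SD between pigs: the steps were 0.15, 0.08 and 0.20 against pooled SDs of 0.26, 0.25 and 0.24. The largest separation was between the lines on the LF diet, where low RFI minus high RFI was -0.44, compared with 0.08 on the HF diet.

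**Figure D1:**
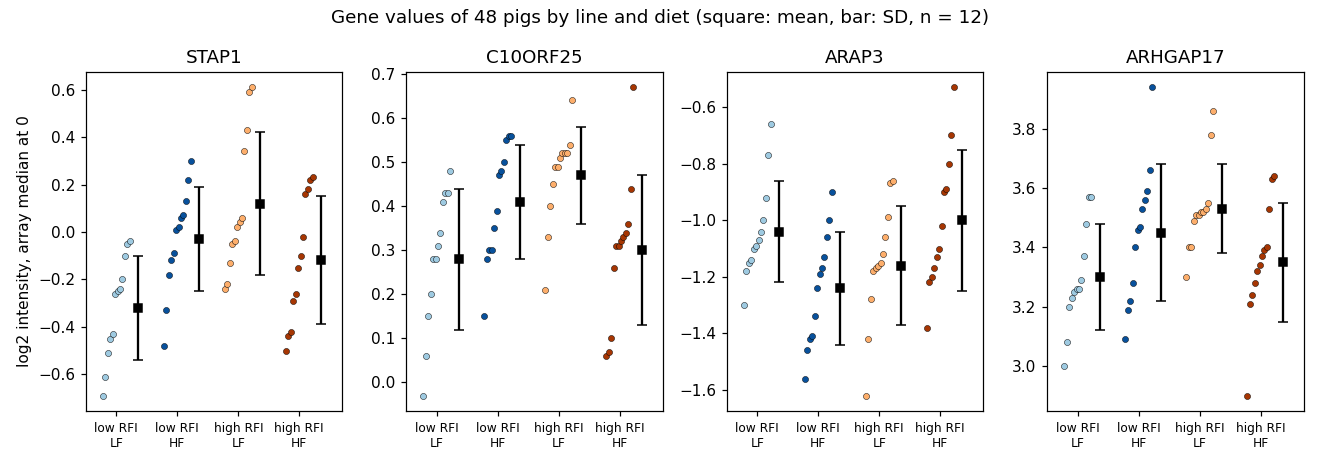
Log2 intensity (array median at 0) of the 4 genes in each of 48 pigs, by line and diet, with pigs sorted by value within a group. Squares are means and bars are SDs of 12 pigs, and all ranges overlap within each line: STAP1, C10ORF25 and ARHGAP17 have their highest mean in high RFI LF pigs, and ARAP3 has its highest in high RFI HF pigs.

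The probes of STAP1 gave similar differences at different levels. The second was named from the study's interaction list, so that this likeness is in part fixed by the naming. The means of probe A_72_P410468 on the HF and LF diets were 0.70 ± 0.26 and 0.46 ± 0.21 in low RFI pigs and 0.61 ± 0.25 and 0.85 ± 0.36 in high RFI pigs (SD, n = 12 each). Its HF minus LF difference was 0.25 (SE 0.11) in low RFI and -0.24 (SE 0.11) in high RFI pigs. Probe A_72_P339423 had means of -0.77 ± 0.26, -1.10 ± 0.26, -0.84 ± 0.32 and -0.61 ± 0.29 in the same order of groups. Its differences were 0.33 (SE 0.11) and -0.22 (SE 0.11). The opposite-strand probe A_72_P355518 was brighter in every group, with means between 2.12 and 2.29, and its differences were -0.06 (SE 0.15) and 0.16 (SE 0.15), which lay within about 1 SE of 0.

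Pig by pig, with the group means removed, the STAP1 probes rose and fell together, while the first of them and the probe of the opposite strand moved against each other. Over 48 pigs Pearson's r between the STAP1 probes was 0.66 (permutation p = 2e-05, adjusted p = 0.00016) and Spearman's coefficient was 0.66 (permutation p = 2e-05). Between A_72_P410468 and A_72_P355518 r was -0.65 and Spearman's coefficient was -0.64, both with a permutation p of 1e-05, the smallest that the permutations can give (adjusted p = 0.00014). Without the 2 pigs farthest from the median r was 0.65 and -0.63, and with both measures centred on slide and group it was 0.71 and -0.73. Between A_72_P339423, which shares no run with it, and A_72_P355518 the relation was weaker (r = -0.34, permutation p = 0.02, adjusted p = 0.05; Spearman's coefficient = -0.35). These p-values were adjusted over the 41 relations computed over pigs.

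**Figure D2:**
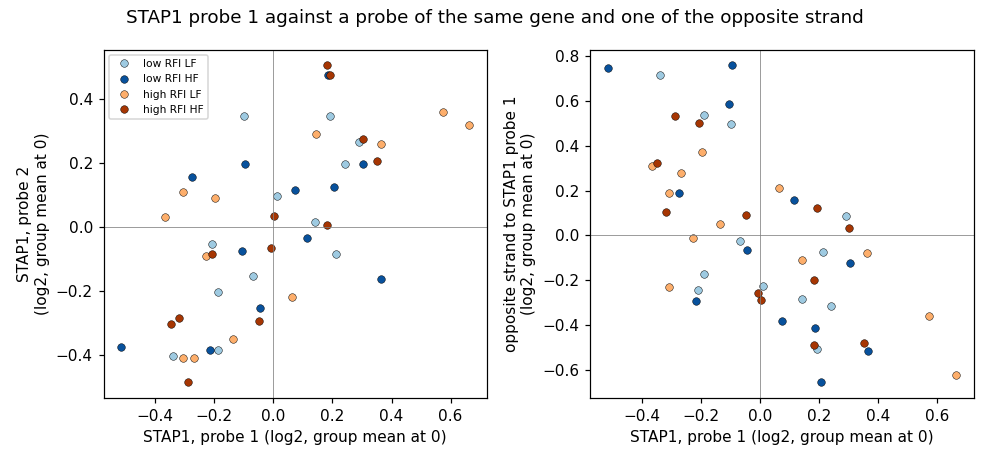
Deviation from the group mean (log2) of 48 pigs for STAP1 probe 1 (A_72_P410468, x axes) against STAP1 probe 2 (A_72_P339423, left) and the probe of the opposite strand (A_72_P355518, right), coloured by group. The left cloud rises (r = 0.66) and the right cloud falls (r = -0.65).

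C10ORF25 followed the same order of groups as STAP1, within a narrower range. In low RFI HF pigs it ranged from 0.15 to 0.56 (median 0.43) and in low RFI LF pigs from -0.03 to 0.48 (median 0.29). In high RFI HF pigs it ranged from 0.06 to 0.67 (median 0.32) and in high RFI LF pigs from 0.21 to 0.64 (median 0.50). In high RFI pigs 11 of 12 LF animals lay above the HF median and 11 of 12 HF animals lay below the LF median, although 1 HF pig had the highest value of both groups. The HF minus LF difference was 0.13 (SE 0.06) in low RFI and -0.17 (SE 0.06) in high RFI pigs, and the interaction was 0.30 (SE 0.09). The means from highest to lowest were those of high RFI LF (0.47 ± 0.11), low RFI HF (0.41 ± 0.13), high RFI HF (0.30 ± 0.17) and low RFI LF pigs (0.28 ± 0.16; SD, n = 12), and each neighbouring pair differed by less than its pooled SD.

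ARHGAP17 also shared this order of groups. In low RFI HF pigs its gene value ranged from 3.09 to 3.94 (median 3.46) and in low RFI LF pigs from 3.0 to 3.57 (median 3.26). In high RFI HF pigs it ranged from 2.90 to 3.64 (median 3.35) and in high RFI LF pigs from 3.30 to 3.86 (median 3.51). The ranges overlapped in both lines, with 9 of 12 low RFI HF pigs above the LF median and 11 of 12 high RFI LF pigs above the HF median. The difference was 0.15 (SE 0.08) in low RFI and -0.18 (SE 0.08) in high RFI pigs, and the interaction was 0.33 (SE 0.11). Its means were 3.53 ± 0.15, 3.45 ± 0.23, 3.35 ± 0.20 and 3.30 ± 0.18 in the same order of groups (SD, n = 12), with every step below the pooled SD.

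The probes of ARHGAP17 agreed closely. For O12016 the diet difference was 0.14 (SE 0.09) in low RFI and -0.21 (SE 0.09) in high RFI pigs, and for A_72_P377963 it was 0.17 (SE 0.08) and -0.15 (SE 0.08). Over the 48 pigs their r was 0.89 and Spearman's coefficient 0.84 (permutation p = 1e-05 for both, adjusted p = 0.00014), and r was 0.85 without the 2 farthest pigs and 0.94 centred on slide and group.

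ARAP3 went the opposite way. Its probe ranged from -1.56 to -0.90 (median -1.21) in low RFI HF and from -1.30 to -0.66 (median -1.08) in low RFI LF pigs. It ranged from -1.38 to -0.53 (median -1.06) in high RFI HF and from -1.62 to -0.86 (median -1.15) in high RFI LF pigs. In low RFI pigs 11 of 12 LF animals lay above the HF median, whereas in high RFI pigs 8 of 12 HF animals lay above the LF median, with overlapping ranges in both lines. The HF minus LF difference was -0.20 (SE 0.09) in low RFI and 0.15 (SE 0.09) in high RFI pigs, and the interaction was -0.36 (SE 0.12). By mean the order was high RFI HF (-1.0 ± 0.25), low RFI LF (-1.04 ± 0.18), high RFI LF (-1.16 ± 0.21) and low RFI HF (-1.24 ± 0.20; SD, n = 12), and no step reached the pooled SD.

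The other sequences tied to ARAP3 did not show this pattern. On the HF and LF diets A_72_P425954 averaged -2.0 ± 0.26 and -2.08 ± 0.18 in low RFI pigs and -2.06 ± 0.23 and -2.19 ± 0.23 in high RFI pigs (SD, n = 12). Its difference was 0.09 (SE 0.09) in low RFI and 0.13 (SE 0.09) in high RFI pigs, the same sign in both, and its interaction was -0.04 (SE 0.13). The probe named arap3 was dim, at a median of 1.95 times the local background, and its differences were 0.16 and 0.05. Averaged with it, the ARAP3 interaction was -0.12. Over pigs the retained ARAP3 probe correlated with A_72_P425954 at r = 0.28 (permutation p = 0.06, adjusted p = 0.12; Spearman's coefficient = 0.25) and with the probe named arap3 at r = 0.10 (permutation p = 0.50; Spearman's coefficient = 0.21). The pattern of ARAP3 thus rests on 1 probe, and so does that of C10ORF25.

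**Figure D3:**
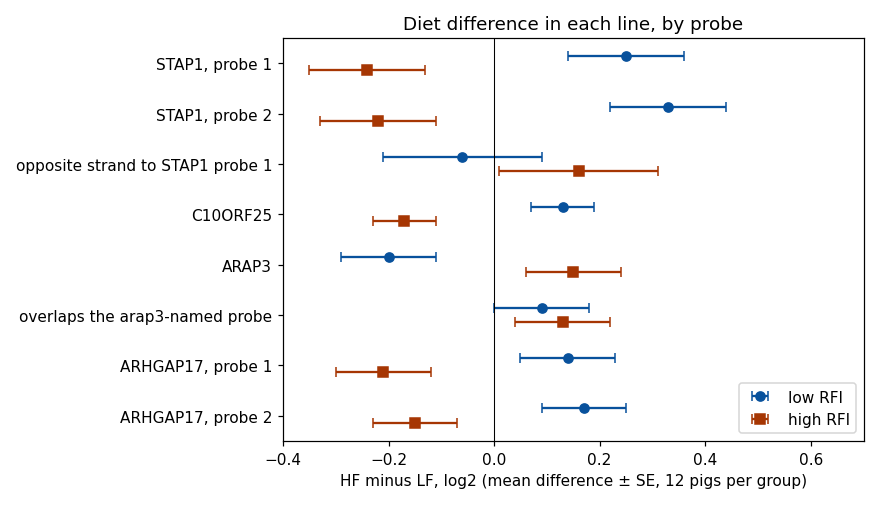
HF minus LF difference (log2, mean difference with its SE, 12 pigs per group) in low RFI (circles) and high RFI pigs (squares) for the 6 member probes and the 2 retained probes related to them; probe 1 and probe 2 of ARHGAP17 are O12016 and A_72_P377963. Circles lie right and squares left of 0 for STAP1, C10ORF25 and ARHGAP17, the reverse holds for ARAP3, and both symbols lie right of 0 for the probe overlapping the arap3-named one.

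The genes were ranked by the P-value of the interaction, not by its size. Over all 26444 gene-level units, identifiers without a symbol included, STAP1 was at 3, C10ORF25 at 4, ARAP3 at 26 and ARHGAP17 at 29. Over the 9831 genes with a symbol they were at 1, 2, 8 and 9. C10ORF25 and ARAP3 count among these only because the study's interaction list names them, while other unnamed probes were left out. At the probe level all 6 member probes were among the 98 of 37113 (0.264%) with an unadjusted interaction P-value under 0.01 by limma. The analysis of variance, which is the test of the study's methods, gave 106 at this P-value, and those methods also asked for a minimum fold change, which was not applied here. Both counts are below the fraction of 0.01 of all probes that would pass if no probe had an interaction. Since the interaction chose the genes, nothing is read from the place of the member probes among them. The member nearest the threshold was O12016, at rank 93 with an interaction of 0.35 (SE 0.13), and the related probes A_72_P355518 (-0.22, SE 0.22) and A_72_P425954 (-0.04) lay outside it. After Benjamini-Hochberg adjustment 0 of all probes passed for the interaction, by limma (847 below 0.05 before adjustment) as by the analysis of variance (879).

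The size of the interaction differed between slides, which hold the same pigs that chose the genes, so that its sign within a slide is a description. Computed on the 2 pigs per group of 1 slide, the STAP1 interaction lay between 0.27 and 1.29, that of C10ORF25 between 0.08 and 0.70, that of ARHGAP17 between 0.18 and 0.47 and that of ARAP3 between -0.66 and -0.10. Slide 6 gave the STAP1 value of 1.29, and the mean of the other 5 slides was 0.36. Scan day 3 held slide 6 alone, and on scan days 1 and 2 the STAP1 interaction was 0.37 and 0.35. The differences within a line were less regular: on slide 1 the HF minus LF difference of low RFI pigs was -0.06 for STAP1, -0.03 for C10ORF25, -0.08 for ARHGAP17 and 0.21 for ARAP3, the reverse of the sign over all slides. In high RFI pigs the sign was reversed for STAP1 on slide 4 (0.07), C10ORF25 on slide 6 (0.13) and ARAP3 on slides 5 and 6 (-0.05 on each).

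**Figure D4:**
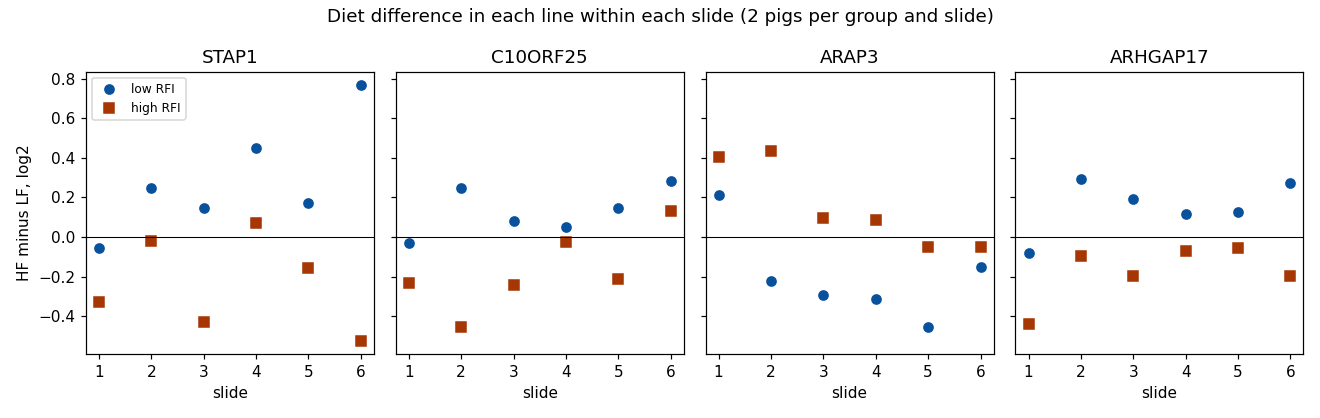
HF minus LF difference (log2) in low RFI (circles) and high RFI pigs (squares) within each of the 6 slides, each from 2 pigs per group. Circles lie above squares on all slides for STAP1, C10ORF25 and ARHGAP17 and below them for ARAP3, and the widest gap is that of STAP1 on slide 6 (1.29).

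The main effects of line and diet are independent of the interaction in this balanced design and were tested with limma over all genes and probes. None of the 4 genes differed between lines at an adjusted P-value under 0.05, compared with 723 of 26444 gene-level units (2.73%), and 1 of 4 was below 0.05 before adjustment, compared with 3054 units (11.5%). These units are the 9831 genes with a symbol and 16613 identifiers without one, and among the genes with a symbol alone 296 (3.01%) were called for line and 1257 (12.8%) were below 0.05 before adjustment. None of the 6 probes did either, compared with 1027 of 37113 (2.77%), with 1 of 6 below 0.05 before adjustment, compared with 4457 probes (12%). The analysis of variance gave the same counts for the members. The gene with the low unadjusted value was STAP1, at -0.18 (SE 0.07) for low RFI minus high RFI, with an adjusted P-value of 0.26 by limma and a 95% interval of -0.32 to -0.03. The line difference was -0.04 for C10ORF25 (95% interval -0.13 to 0.05), -0.06 for ARAP3 (-0.18 to 0.07) and -0.07 for ARHGAP17 (-0.18 to 0.04).

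For diet, 0 of 4 genes and 0 of 6 probes passed, and 0 were under 0.05 unadjusted, by limma and by the analysis of variance. Over all probes limma called 0 (0%), with 610 under 0.05 unadjusted, and the analysis of variance called 0, with 622. Over gene-level units 426 (1.61%) were under 0.05 unadjusted. Averaged over lines, HF minus LF was 0.03 for STAP1 (95% interval -0.12 to 0.17), -0.02 for C10ORF25 (-0.11 to 0.07), -0.03 for ARAP3 (-0.15 to 0.10) and -0.01 for ARHGAP17 (-0.13 to 0.10).

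Some pairs of members were related to each other beyond the groups. With group means removed, STAP1 and ARHGAP17 had an r of 0.65 and a Spearman's coefficient of 0.67 over 48 pigs (permutation p = 1e-05, adjusted p = 0.00014), and r was 0.64 without the 2 farthest pigs, 0.75 centred on slide and group and between 0.43 and 0.86 within slides. C10ORF25 correlated with ARHGAP17 (r = 0.43, permutation p = 0.0041, adjusted p = 0.01; Spearman's coefficient = 0.33, adjusted p = 0.07) and with STAP1 (r = 0.36, permutation p = 0.01, adjusted p = 0.04; Spearman's coefficient = 0.32, adjusted p = 0.07). ARAP3 ran against C10ORF25 (r = -0.43, permutation p = 0.0036, adjusted p = 0.01; Spearman's coefficient = -0.41). Its relation to STAP1 (r = -0.25, permutation p = 0.11, adjusted p = 0.17) and to ARHGAP17 (r = -0.31, permutation p = 0.03, adjusted p = 0.07) did not pass after adjustment. Values of 1 array share its scaling, which is common to all of these relations.

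Among the 9830 other genes with a symbol, the 5 most like each member over the 48 pigs, with group means removed, were the following. STAP1 was most like ZC3H7A (r = 0.69), ARHGAP17 (0.65), XRCC6BP1 (0.64), RASSF2 (0.64) and EXOSC1 (0.63). ARHGAP17 was most like WDR91 (0.90), BRD7 (0.88), ATP2A1 (0.88), SNF8 (0.87) and C1ORF151 (0.86). C10ORF25 was most like ZMYND17 (0.75), FAM36A (0.75), DENND4C (0.71), HMBOX1 (0.70) and NFX1 (0.70). ARAP3 was most like CXCR1, an interleukin-8 receptor of neutrophils (0.74), TMEM120A (0.72), MYD88, the adaptor of Toll-like receptors (0.70), SIGLEC10 (0.69) and ACSL4, which activates polyunsaturated fatty acids (0.66). These r values are the highest of 9830 and are a description. Of the 5 genes most like ARAP3, ACSL4 was underexpressed in low RFI pigs (-0.31, adjusted P-value 0.043 by limma). No other gene in these lists was called for line, against 3.01% of the genes with a symbol.

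Lists of genes around the members were examined next, with 88 of 129 distinct genes measured. In B cell antigen receptor signalling 3 of 26 measured genes were lower in the low RFI line at an adjusted P-value under 0.05, and none was higher, against 2.73% of all gene-level units. They included BLNK, the adaptor that links SYK to PLCG2 (-0.23, SE 0.06, adjusted P-value 0.025), and FCGR2B, the inhibitory Fc receptor (-0.25, SE 0.07, 0.038). On the HF and LF diets BLNK averaged 2.13 ± 0.27 and 2.11 ± 0.24 in low RFI pigs and 2.25 ± 0.17 and 2.45 ± 0.13 in high RFI pigs (SD, n = 12). The call of FCGR2B was close to the threshold: when each pig was left out in turn, it was lost in 18 of 48 runs, with an adjusted P-value of at most 0.064, while that of BLNK stayed at 0.042 or below. The line effect of BLNK was not called on its brightest probe alone (adjusted P-value 0.11 by limma) or with the column as deposited (0.09). The line effect of FCGR2B was not called in these settings either (0.66 and 0.12), nor with all non-control spots (0.061). The median line difference of the list was -0.06, beside 0.02 over all gene-level units.

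Of the 26 genes of that list, 1 had an unadjusted interaction P-value under 0.05, against 2.25% of all gene-level units and 2.28% of those with a symbol: PIK3R1, a regulatory subunit of phosphoinositide 3-kinase, with -0.65 (SE 0.30, P-value 0.032, adjusted P-value 0.89 by limma). Its SD was 0.80 in low RFI HF and 0.27 in low RFI LF pigs. The next lowest P-values were those of BLNK (0.22, SE 0.12) and PRKCB, a protein kinase C (-0.25, SE 0.16). Of the genes listed as relatives or signalling partners of STAP1, 7 of 8 were measured, and neither limma nor the analysis of variance gave any of them an interaction P-value under 0.05. STAT5B (-0.14, SE 0.11) and PLCG2 (-0.18, SE 0.16) came nearest. The median interaction was 0.02 in the first list and -0.09 in the second, beside 0.00 over all gene-level units. For line, limma called 1 of 7 measured genes of the second list, lower in low RFI pigs, against 2.73% of all gene-level units. This gene is also in the first list.

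Of the other Arf GTPase-activating proteins, the family of ARAP3, 0 of 11 measured genes passed for line by limma, with 2 under 0.05 unadjusted against 11.5% of all gene-level units, and 0 for the interaction. Those 2 were ASAP3 (-0.43, SE 0.13, adjusted P-value 0.059) and SMAP2 (-0.30, SE 0.09, 0.069), which are also among the 3 with the lowest interaction P-values, at -0.36 (SE 0.26) and -0.27 (SE 0.19), beside SMAP1 at 0.14 (SE 0.12). Over 61 alternative settings, those that leave out a pig included, ASAP3 was called for line in 12 (lowest adjusted P-value 0.026) and SMAP2 in 10 (0.029). The median interaction of the family was -0.03, and the analysis of variance also called 0 of its genes for line, with 2 under 0.05 unadjusted.

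The label of whole blood was borne out by its markers: HBB, the beta chain of hemoglobin, lay between 8.52 and 9.70 on the log2 scale over the 48 pigs, CD3E of T cells between 2.53 and 3.88 and CD79B of B cells between 2.87 and 4.56. B cell markers differed between lines as well. Of 11 measured B cell markers 5 were underexpressed in low RFI pigs and none was overexpressed, against 2.73% of all gene-level units called in either direction, among them MS4A1 (-0.36), CD40 (-0.33), EBF1 (-0.30) and FCRLA (-0.30). The log2 of the summed level of the 11 ranged from 5.28 to 6.33 in low RFI HF, from 5.10 to 6.04 in low RFI LF, from 5.63 to 6.12 in high RFI HF and from 5.78 to 6.07 in high RFI LF pigs. STAP1, which also had its lowest mean in low RFI LF pigs, was measured in the same blood, and beside it the following values were measured. With the mean of the B cell markers as a covariate the STAP1 interaction was 0.48 (SE 0.15), that of C10ORF25 0.28 (SE 0.09), that of ARAP3 -0.34 (SE 0.12) and that of ARHGAP17 0.26 (SE 0.10). The line difference of STAP1 was then -0.11 (SE 0.08). No list of other cells, the erythroid list included, was used as a covariate, so that their part in these values was not tested.

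Marker lists of other cells had the following means, whose differences between diets within a line were not tested. The mean of 8 neutrophil markers was 3.47 ± 0.52 in high RFI HF and 2.93 ± 0.33 in high RFI LF pigs, a difference of 0.54, against 0.04 in low RFI pigs (3.06 ± 0.62 and 3.03 ± 0.46; SD, n = 12). All 8 had an interaction below 0, with a median of -0.48 beside 0.00 over all gene-level units, of which 13400 of 26444 were above 0. An unadjusted interaction P-value under 0.05 was found for 0 of 8 by limma and by the analysis of variance, against 2.25% of all gene-level units by limma. The 8 were measured in the same pigs and are not independent. The probes of highest level, which do not rank the abundance of genes, were those of CXCR2 (-0.32, SE 0.24) and S100A8 (-0.73, SE 0.54). The log2 of the summed neutrophil markers ranged from 6.21 to 8.45 in low RFI HF, from 6.63 to 8.61 in low RFI LF, from 7.13 to 8.99 in high RFI HF and from 6.61 to 8.32 in high RFI LF pigs. Their part in the members' differences was not tested.

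Erythroid markers had a median interaction of -0.31, with 10 of 11 below 0, beside 13400 of 26444 gene-level units above 0. By limma 1 of 11 had an unadjusted interaction P-value under 0.05, against 2.25% of all units. This was SLC4A1, the anion exchanger of the red cell membrane, at -0.48 (SE 0.15, P-value 0.0022, adjusted P-value 0.89 by limma). The mean of the erythroid markers differed by 0.26 between HF and LF in high RFI pigs and by -0.04 in low RFI pigs. The probes of highest level were those of AHSP (-0.26, SE 0.23) and HBB (-0.21, SE 0.17). For line, where limma called 2.73% of all gene-level units, it called 1 of 11 erythroid markers, SLC4A1 (0.26), 1 of 9 T cell markers, LCK (0.21), 1 of 10 NK and cytotoxic markers, EOMES (0.50), 1 of 10 monocyte markers, CD14 (-0.47), 1 of 8 neutrophil markers, CXCR2 (-0.42), and 0 of 8 platelet markers, of which 0 were under 0.05 unadjusted. The analysis of variance did not call those of erythroid cells, monocytes and neutrophils, nor any of platelets. The remaining lists had median interactions of 0.14 for B cells, 0.09 for T cells, 0.05 for NK and cytotoxic lymphocytes, -0.10 for monocytes and -0.14 for platelets. Interactions of the 2 genes with the highest probe level were those of CD79B (0.21) and CD40 (0.24) for B cells, CD247 (0.10) and CD3E (0.09) for T cells, FCER1G (-0.10) and GZMB (0.04) for NK and cytotoxic lymphocytes, LYZ (-0.42) and CTSS (0.25) for monocytes, and ITGB3 (0.03) and ITGA2B (-0.10) for platelets.

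Within groups, the members related to these lists in different ways. ARHGAP17 rose with the B cell list (r = 0.61, permutation p = 2e-05, adjusted p = 0.00016; Spearman's coefficient = 0.53, adjusted p = 0.0018) and the NK and cytotoxic list (r = 0.49, permutation p = 0.00023, adjusted p = 0.0013; Spearman's coefficient = 0.49), and fell with the erythroid list (r = -0.59, permutation p = 4e-05, adjusted p = 0.00027; Spearman's coefficient = -0.60). Without the 2 pigs farthest from the median these were 0.54, 0.42 and -0.54, and centred on slide and group 0.59, 0.63 and -0.82. Its relation to the T cell list (r = 0.36, permutation p = 0.0093, adjusted p = 0.03; Spearman's coefficient = 0.36) dropped to 0.24 without 2 pigs, so that it rests in part on them. STAP1 fell with the erythroid list (r = -0.46, permutation p = 0.0013, adjusted p = 0.0062; Spearman's coefficient = -0.44), at -0.42 without 2 pigs and -0.61 centred on slide and group, and within slides r ran from -0.92 to 0.12. For STAP1 and the B cell list r was 0.24 (permutation p = 0.08, adjusted p = 0.14; Spearman's coefficient = 0.21).

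ARAP3 rose with the monocyte list (r = 0.46, permutation p = 0.0014, adjusted p = 0.0062; Spearman's coefficient = 0.43), at 0.42 without 2 pigs and 0.25 centred on slide and group, and fell with the T cell list (r = -0.42, permutation p = 0.0038, adjusted p = 0.01; Spearman's coefficient = -0.39), at -0.36 without 2 pigs and -0.40 centred on slide and group. C10ORF25 was lower where the monocyte list was higher (r = -0.35, permutation p = 0.02, adjusted p = 0.05; Spearman's coefficient = -0.41, adjusted p = 0.02), at -0.31 without 2 pigs and -0.24 centred on slide and group. The neutrophil list, which had the largest difference of the 7 between HF and LF in high RFI pigs, correlated with no member after adjustment, with r from -0.11 to 0.21. In all, 28 relations between members and lists were computed, among the 41 adjusted together.

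**Figure D5:**
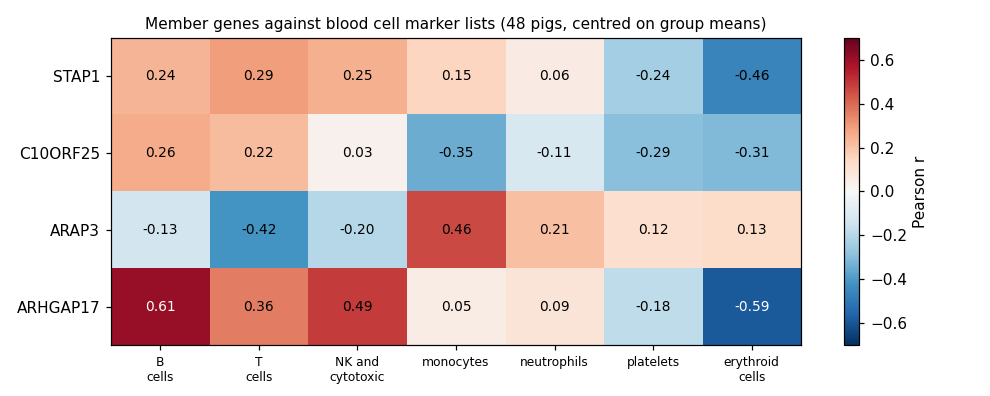
Pearson's r over 48 pigs, with group means removed, between each member gene (rows) and the mean of each blood cell marker list (columns), with red above 0 and blue below. ARHGAP17 has the strongest values, 0.61 with B cells and -0.59 with erythroid cells, and ARAP3 has the opposite sign to STAP1 for B cells, T cells, NK and cytotoxic lymphocytes, platelets and erythroid cells.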

How the data were processed

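The authors deposited scanner intensity values for each spot, with local background and quality calls, and a table of log2 values for 37113 spots retained after their quality filtration in R 3.0.2. Recomputing log2 of each spot's median intensity, centred on the median of its array and with no background subtracted, gave the deposited log2 values of 47 arrays within 1e-05. The column of high RFI HF replicate 1 was rebuilt in the same way. Gene names came from the accession in a RefSeq table (5087 spots), the scanner files (12345) or the gene number in that table (1573). The study's list of probes with an interaction was used for members only and named 3 spots, and 18105 spots had no name.

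With limma 3.58.1 (R 4.3.3) a linear model with 4 group means was fitted to each spot and to the mean over the spots of a gene, with Benjamini-Hochberg adjustment over all spots or genes. The model was also run on simulated data, whose interactions were larger than those of the members, so that this run does not bear on effects of their size. Correlations over pigs used 100000 two-sided permutations within groups, with both measures centred on group means, and ran in Python 3.11.15 (numpy 2.4.6). Tables were handled with pandas 2.3.3, 95% intervals used scipy 1.17.1 and plots were drawn in matplotlib 3.10.9. The precision is limited by the number of arrays.

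The members, gene lists and tests were chosen with earlier results of these data known. Genes named are the members, the 5 genes most like each, per pathway list those called for line or diet (adjusted P-value under 0.05) and the 3 of lowest interaction P-value, and the 2 genes of highest probe level per marker list with those of interaction P-value under 0.01. The B cell and other marker genes that passed for line are named in addition and were chosen after their values were seen. Alternatives were the analysis of variance, a trended and robust prior, the processed signal centred on the median or the 75th percentile, normexp with an offset of 50 and quantile normalization, all non-control spots, spots well above background only, blocks, the brightest probe, the deposited column, B cell markers as a covariate and leaving out each pig. The files name no genome build, and none was used. Some results for genes and gene families of the lists are not reported here.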

Additional observations from a re-analysis of the deposited data

Results flagged for a closer look

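The probe named arap3 (O6671) lies outside the deposited table, yet the scanner software called it well above background on 45 of 48 arrays. It is flagged because it carries signal in data that the comparisons leave out. Its intensity was 1.17 to 4.06 times the local background, and its HF minus LF difference was 0.16 in low RFI and 0.05 in high RFI pigs on the log2 scale, an interaction of 0.12.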

How the results depend on the processing

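When each of the 48 pigs was left out in turn, the members' interactions, whose sign the choice of members fixes, were 0.47 to 0.56 for STAP1, 0.27 to 0.34 for C10ORF25, -0.39 to -0.31 for ARAP3 and 0.28 to 0.36 for ARHGAP17. No member was called for line or diet. Of the members' line and diet effects only the diet effect of ARHGAP17, near 0, changed sign, from -0.03 to 0.01. The probes with an interaction P-value under 0.01 then numbered 62 to 173, with 173 without low RFI HF replicate 2, 62 without low RFI HF replicate 11 and 64 without low RFI LF replicate 8 or high RFI HF replicate 8. Pathway list genes called for line numbered 1 to 5, and those with an interaction P-value under 0.05 numbered 0 to 3.

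With the column as deposited the interaction was 0.26 for STAP1, 0.10 for C10ORF25 and -0.65 for ARAP3. The high RFI diet difference was then 0.03 for STAP1 and for C10ORF25 and 0.45 for ARAP3, and the diet effect 0.08 for C10ORF25 and 0.12 for ARAP3, with 14 probes under an interaction P-value of 0.01, 265 called for line and 0 list genes called for line. With all non-control spots, which add the probe named arap3, ARAP3 had an interaction of -0.12, a line difference of 0.03 and a diet effect of 0.04, and 1 list gene was called for line. With B cell markers as a covariate the line difference was 0.00 for C10ORF25 and 0.06 for ARHGAP17. The diet effect of ARHGAP17 was 0.00 with the processed signal under either centring and 0.01 without the rebuilt pig. List genes called for line numbered 5 with normexp and quantile normalization and with slide as a block, and list genes with an interaction P-value under 0.05 numbered 3, 2 and 3 with normexp and quantile normalization, slide and scan day as a block.

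The labels do not say that a replicate number marks a shared litter or day. Same-numbered pigs of different groups had a median r of 0.20, against -0.03 for other numbers and 0.09 for other numbers on the same slide. Of 72 same-numbered pairs 44 correlated above 0.1, and 22 of 48 pigs correlated best with their own number, so that a shared structure is hinted at but not every pair shows it. With the replicate block the STAP1 interaction stayed at 0.52 (SE 0.15), 211 probes had an interaction P-value under 0.01, 1496 were called for line, 5 list genes were called for line and 4 had an interaction P-value under 0.05. No other call of a member changed.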
